A study of Homo sapiens with 8 samples.

Results

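The 2 libraries that carry the replicate number 4, 1 of cells given control siRNA and 1 of cells given BARD1 siRNA, were compared with the 6 libraries numbered 1 to 3 of the same 2 treatments. They are 2 of the 8 libraries of the study, grouped by the number in their labels. The number 4 was chosen with earlier results of these data known, in which it already stood apart. The p-values and counts called are therefore those of a split chosen with these data seen. Every comparison of 2 against 6 carried a term for the siRNA, so that the effect of the siRNA itself is not what is described. All libraries are from MiaPaCa-2 cells, a long-used line from a human pancreatic carcinoma that the labels call wild type, grown without further treatment named in the labels and harvested 48 h after transfection with a scrambled control siRNA (labelled SCR) or an siRNA against BARD1, the obligate partner of BRCA1 in DNA double-strand break repair. The labels do not say what the number 4 stands for, whether a culture, a day, an extraction or a sequencing run, nor whether equal numbers share one, so the p-values here speak of the spread among these 8 libraries, and that spread may be technical. With 1 library numbered 4 under each siRNA, anything that was done or that happened to those 2 libraries alone cannot be told apart from the number.

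As background, dividing cells hold high levels of the RNAs for ribosome assembly, protein folding and the mitotic machinery, and much of the nucleolar set is under MYC. Interferons act through STAT and IRF factors on a shared set of antiviral genes, YAP and TEAD drive genes of spreading and contact, and immediate early genes such as FOS are switched on by kinases before any new protein is made. The genes of each such set tend to move together in cultured cells.

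Messenger RNA was counted per gene, and 24458665 to 36212716 reads were assigned per library, with 29743948 and 27565777 in control and BARD1 siRNA library 4. The depth of the libraries numbered 4 therefore lay within that of the others, and 3 reads, the limit that a count of 0 allows for counting error alone, corresponded to 0.0828 to 0.123 CPM, the read count scaled to library size. Mitochondrially encoded genes took 3.26% and 4.44% of the counts of the libraries numbered 4, against 0.695% to 2.02% in the others. Genes with at least 1 CPM numbered 12961 and 13183 in the libraries numbered 4, against 12362 to 12530. The line's markers fitted its label in all 8 libraries: VIM, the mesenchymal filament vimentin, was at 1632 to 2043 CPM, while MTAP, CDH1 and EPCAM, deleted or silent in MiaPaCa-2, had 0 to 4 reads. BARD1 was at 26.9, 28.0 and 26.9 CPM in control siRNA libraries 1 to 3 and at 20.8 CPM in library 4, and at 3.56, 2.24 and 2.45 CPM in BARD1 siRNA libraries 1 to 3 against 7.59 CPM in library 4. Every BARD1 siRNA library was below every control library, and the gap was narrowest in the pair numbered 4.

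A large share of the genes differed. Of 14528 genes tested, 6712 passed an adjusted p of 0.05 (edgeR quasi-likelihood test, Benjamini-Hochberg adjustment), 46.2% of the genes tested, with 3206 higher in the libraries numbered 4 (22.1%) and 3506 lower (24.1%). The large differences were mostly rises: 970 genes were higher at least 2-fold and 146 lower at least 2-fold. Library 4 lay above libraries 1 to 3 under both siRNAs in 4178 genes (28.8% of those tested) and below them in 4125 (28.4%), and this held for 3102 of the 3206 genes called higher and for 3384 of the 3506 called lower. The split between rises and falls depends on the scaling: it was 4006 against 2674 with upper-quartile scaling and 4303 against 2391 with total counts alone. Total-count scaling moved the median log2 difference of all genes up by 0.12, from 0.02. Without BARD1 siRNA library 4 the count of genes called was 4081. In bulk RNA, fewer cells of a kind and less RNA per cell cannot be told apart.

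**Figure D1:**
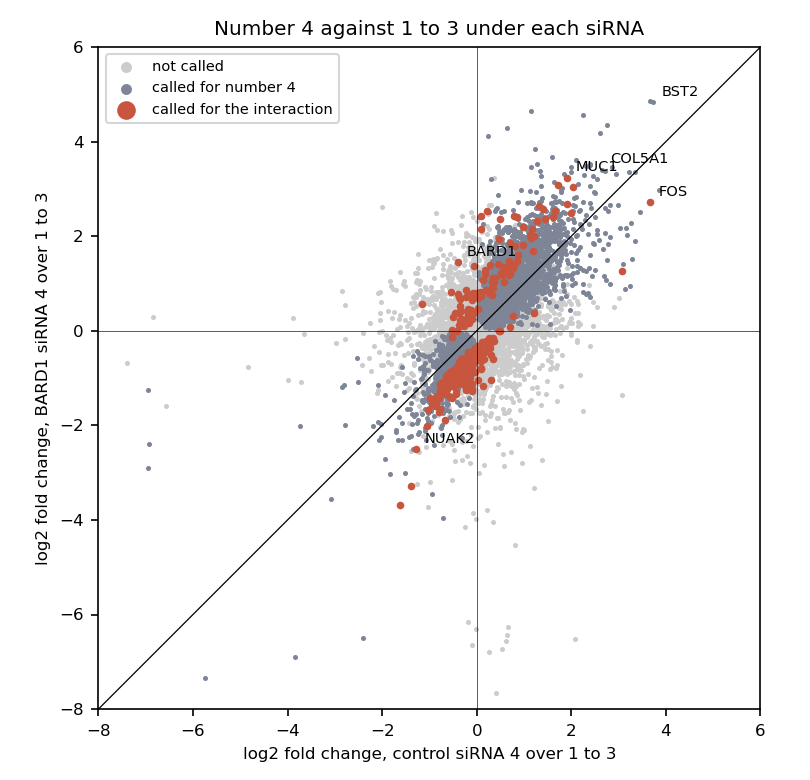
Each point is 1 of the 14528 genes tested; the x axis is the log2 fold change of control siRNA library 4 over control libraries 1 to 3, the y axis the same for BARD1 siRNA, and the line marks equal change. The 6712 genes called for number 4 lie mostly along the line, FOS lies below it, MUC1 and BARD1 above it, and the 364 genes whose difference depends on the siRNA are in red.

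The difference also followed a gene's mean level. With the genes in 5 equal groups by mean CPM, the median log2 difference was 0.39 in the group of lowest level and 0.27, 0.07, -0.10 and -0.23 in the groups above it. The share of genes called lower rose from 1.48% in the group of lowest level to 58.7% in that of highest level. The shares called higher in the 5 groups, from lowest to highest level, were 14.4%, 33.5%, 30.8%, 19.2% and 12.4%. In 5 groups by gene length the medians ran from 0.10 in the shortest to -0.10 in the longest. Antisense genes, which are mostly of low level, had 93 members higher and 16 lower of 572 tested, and long intergenic noncoding genes 68 higher and 18 lower of 434. Their medians of 0.38 and 0.31 did not exceed the level background of 0.39 that both classes had. Antisense and sense-intronic genes together took 0.242% and 0.278% of the counts of the libraries numbered 4, against 0.187% to 0.214% in the others. The labels do not settle whether the libraries keep the strand, so reads of an antisense gene and of its partner cannot be told apart. Because of this trend most gene lists below are set beside the median of all genes in their members' groups of mean level, called the level background, and beside their own median after the trend on mean level was removed, an alternative chosen after seeing the data. The part of mean level in any single difference was not tested.

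**Figure D2:**
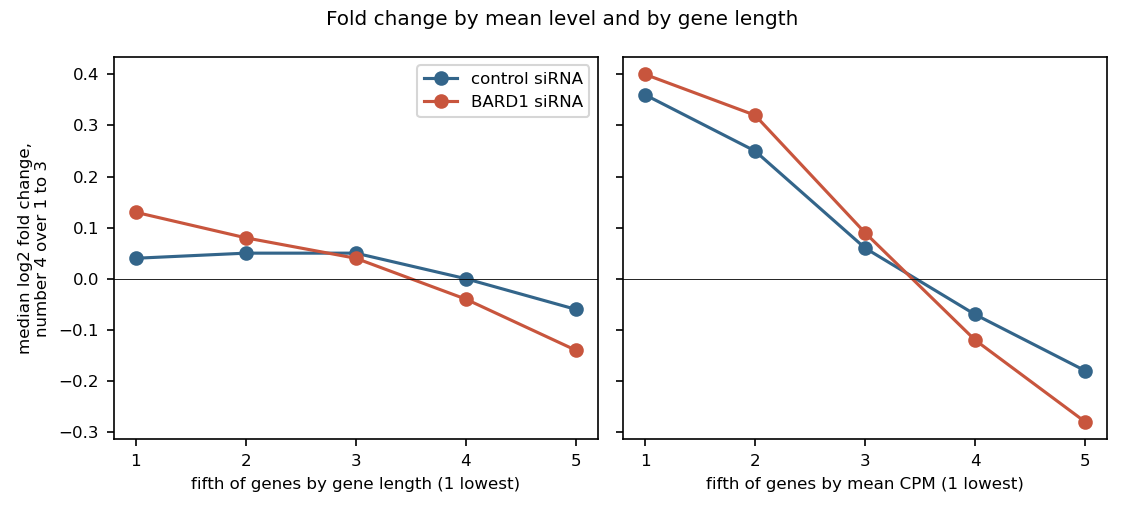
Median log2 fold change of number 4 over numbers 1 to 3 in 5 equal groups of genes by gene length (left) and by mean CPM (right), separately for each siRNA. Under both siRNAs the median fell from the group of lowest mean CPM, at 0.36 and 0.40, to the highest, at -0.18 and -0.28.

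Across 49 gene lists, 12 had a median at least 0.1 above that of all genes and 26 a median at least 0.1 below it. The highest medians belonged to the mitochondrially encoded proteins, the extracellular matrix, the interferon-stimulated genes and class I antigen presentation. The lowest belonged to ribosome biogenesis, mitosis, targets of YAP and TEAD, targets of NF-kB and the proteasome. Counts of members called also followed level. Of cytosolic chaperones 65.6% were called lower, of actin genes under serum response factor 64.3%, of translation factors 57.6% and of splicing factors 54.3%. These shares were near the 58.7% of all genes in the group of highest mean level, which holds the median level of each of these lists. In the other direction, 45.5% of Notch genes, 41.7% of genes raised on growth factor withdrawal and 40.0% of Wnt genes were called higher. The middle group by mean level, which holds the median level of the Notch, withdrawal and Wnt lists, had 30.8% called higher.

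**Figure D3:**
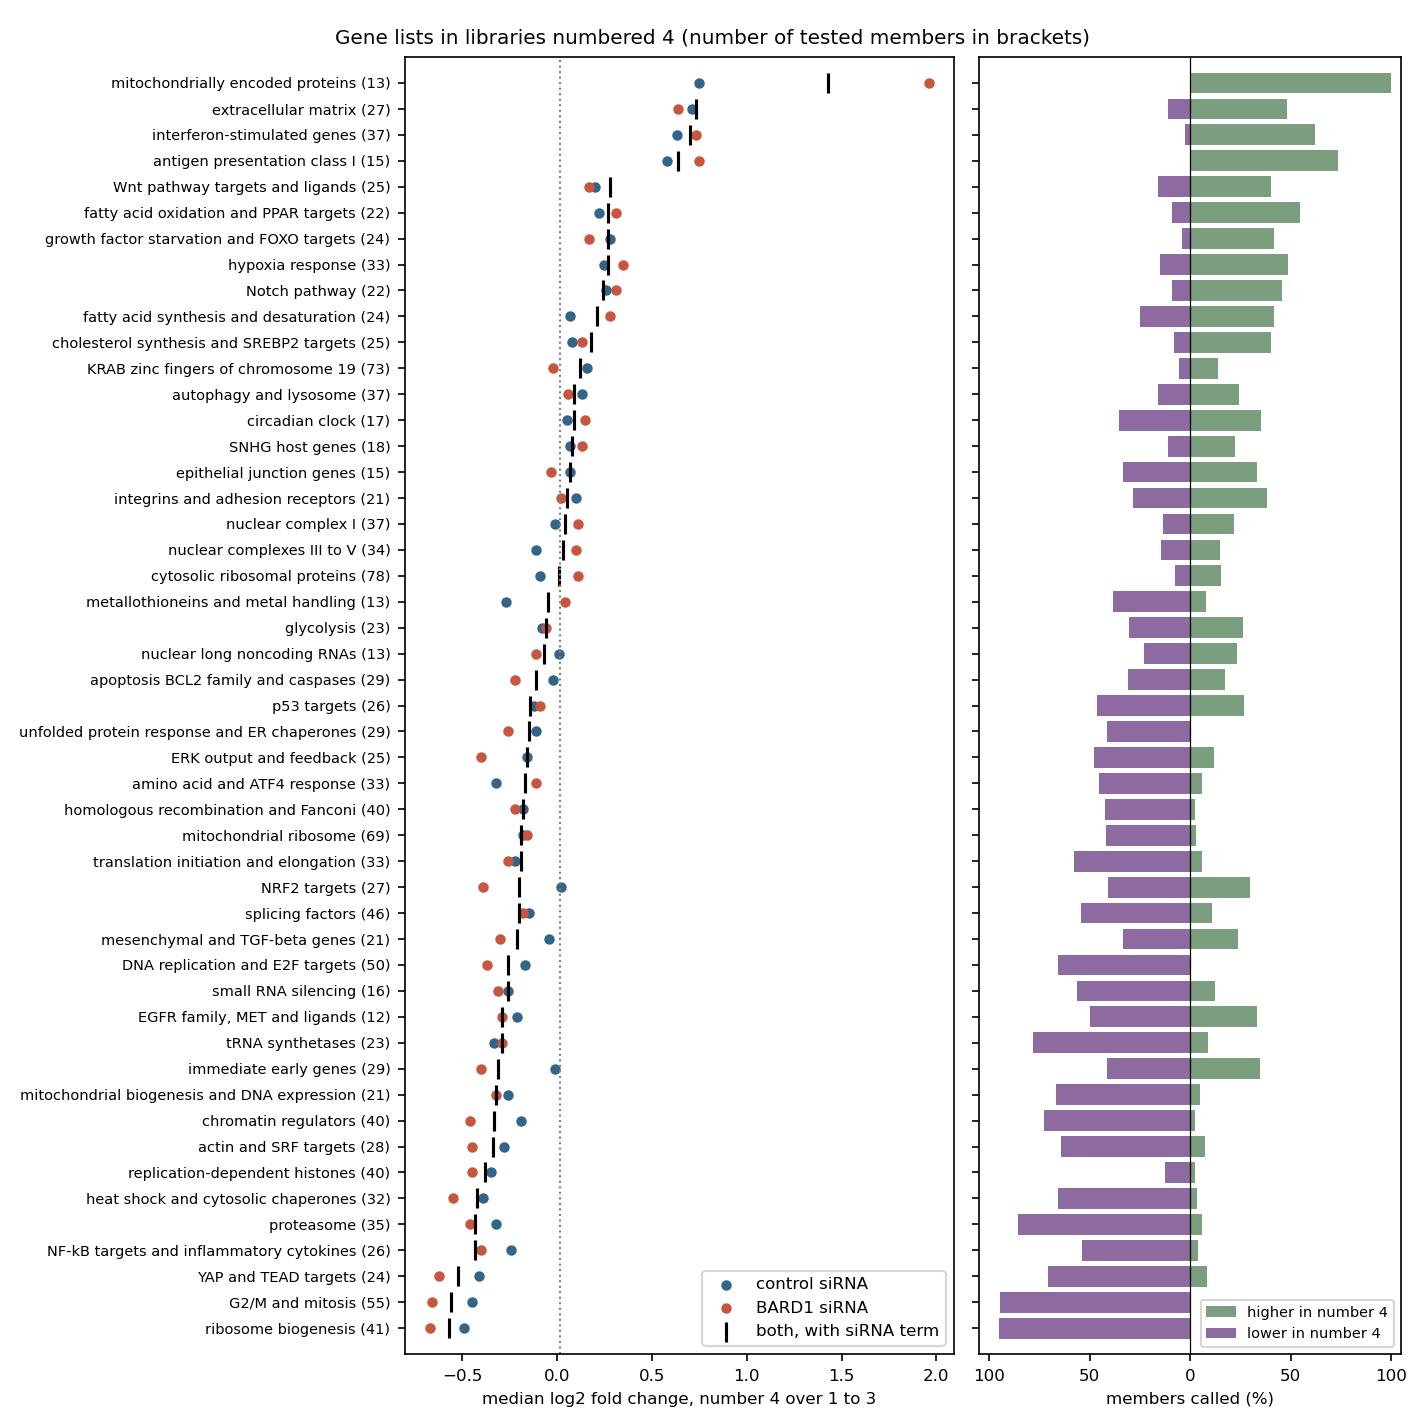
Left, the median log2 fold change of number 4 over numbers 1 to 3 for each of 49 gene lists within control siRNA (blue), within BARD1 siRNA (red) and in the fit of both (black bar); the dotted line is the median of all genes, 0.02. Right, the percent of tested members called higher (green) or lower (purple), from 95.1% lower in ribosome biogenesis to 100% higher in the mitochondrially encoded proteins.

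Interferon-stimulated genes were mostly higher. Of 37 tested members of the list, 23 were higher and 1 was lower, and the median log2 difference was 0.70, against 0.02 in all genes and a level background of 0.27; it was 0.58 after the trend on mean level was removed. BST2, or tetherin, which holds budding enveloped viruses at the cell surface, was at 2.63, 0.919 and 0.534 CPM in control siRNA libraries 1 to 3 and at 17.5 CPM in library 4. Under BARD1 siRNA it was at 0.982, 0.943 and 0.346 CPM in libraries 1 to 3 and at 22 CPM in library 4. Both libraries numbered 4 stood far above the other 6, with a log2 difference of 4.29 (SE 0.34, edgeR adjusted p = 5.26e-08), the largest of the 37. The gene lies at chr19:17513748-17516457 on GRCh37. IFIT1, an RNA-binding protein of the interferon response, was at 23.7, 20.3 and 19.3 CPM in control libraries 1 to 3 against 40.4 CPM in library 4, and at 17.1, 19.1 and 14.7 CPM against 37.1 CPM under BARD1 siRNA. The groups did not overlap under either siRNA (log2 difference 1.03, SE 0.11).

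Other raised members covered sensing, signalling and defence. IFIH1 and DDX58, sensors of double-stranded RNA, rose by 0.89 and 0.77 on the log2 scale, the antiviral GTPase MX1 by 1.76, DDX60 by 1.57 and IFI6 by 1.44. IRF1, a transcription factor of the response, rose by 0.94 and STAT2 by 1.0. Not all members moved: IRF9 had a log2 difference of 1.0 and IRF7 of -0.49 without passing the test, and SAMD9 was at -1.05, also without passing it.

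Many but not all promoters of the listed genes held the interferon-stimulated response element. Its core, the letters GAAA, any 2 bases and GAAA again, searched on both strands in the 300 bases from 250 before to 50 after the start of each gene (RefSeq, GRCh38.p14, first listed start), was in 18 of the 29 members with a promoter in the table (62.1%), against 3.65% of 27305 promoters; this motif was added after seeing the data. Of the 10550 tested genes with a promoter 2.63% held the motif. Those with the motif had a median log2 difference of 0.02 and those without 0.00. Within the lists the genes without it had the higher medians, 0.68 with and 0.99 without it among interferon-stimulated genes, and 0.34 and 1.22 among class I genes. The 150 bases before the start of BST2 (chr19:17405631-17405780, minus strand) and IFIT1 (chr10:89392473-89392622, plus strand) are shown because these are the 2 members with the smallest p that hold it there; capitals mark the motif on either strand.
BST2: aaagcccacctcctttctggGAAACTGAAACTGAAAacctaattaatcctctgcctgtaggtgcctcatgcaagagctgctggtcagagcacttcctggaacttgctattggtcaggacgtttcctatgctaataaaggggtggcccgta
IFIT1: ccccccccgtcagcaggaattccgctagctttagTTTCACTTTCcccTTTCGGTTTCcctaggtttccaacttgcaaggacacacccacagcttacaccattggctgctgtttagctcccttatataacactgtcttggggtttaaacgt
BST2 holds 2 overlapping copies and IFIT1 holds 2 copies on the other strand.

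Class I antigen presentation, which shows peptides of the cell's own proteins at its surface, was higher too. Of 15 members 11 were higher and none lower, with a median of 0.64 against a level background of 0.07, and 0.71 after the trend on mean level was removed. HLA-B, a class I heavy chain, was at 35.5, 31.9 and 32.2 CPM in control libraries 1 to 3 and at 49.4 CPM in library 4, and at 36.8, 37.3 and 38.2 CPM against 60.3 CPM under BARD1 siRNA. Libraries 1 to 3 lay close together while both libraries numbered 4 stood above all of them (log2 difference 0.63, SE 0.08). HLA-C and HLA-E rose by 1.04 and 0.54, their shared light chain B2M by 0.39, and TAPBP, which loads peptide, by 0.82; the HLA genes are near copies of each other, and reads shared between them could be split. The immunoproteasome subunits PSMB8, PSMB9 and PSMB10 rose by 1.40, 1.71 and 1.12 from levels of 0.618 to 2.13 CPM. The peptide transporter genes TAP1 and TAP2 had log2 differences of 0.16 and -0.26 and did not pass the test. Of the 4 leukocyte markers in the table, 1 was called higher and 1 lower: CD14 was at 15.6 and 18.8 CPM in the libraries numbered 4 against 1.94 to 5.19 CPM in the others, and LYZ was at 3.29 and 3.63 CPM against 4.98 to 5.78 CPM. The summed level of the 4, 19.2 and 23.0 CPM against 7.66 to 12 CPM, was higher through CD14 alone; ITGAM was at 0.255 and 0.542 CPM against 0.125 to 1.23 CPM, and the macrophage marker CD68 had 0 or 1 read in every library. The part of such cells in the rise of interferon and class I genes was not tested.

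**Figure D4:**
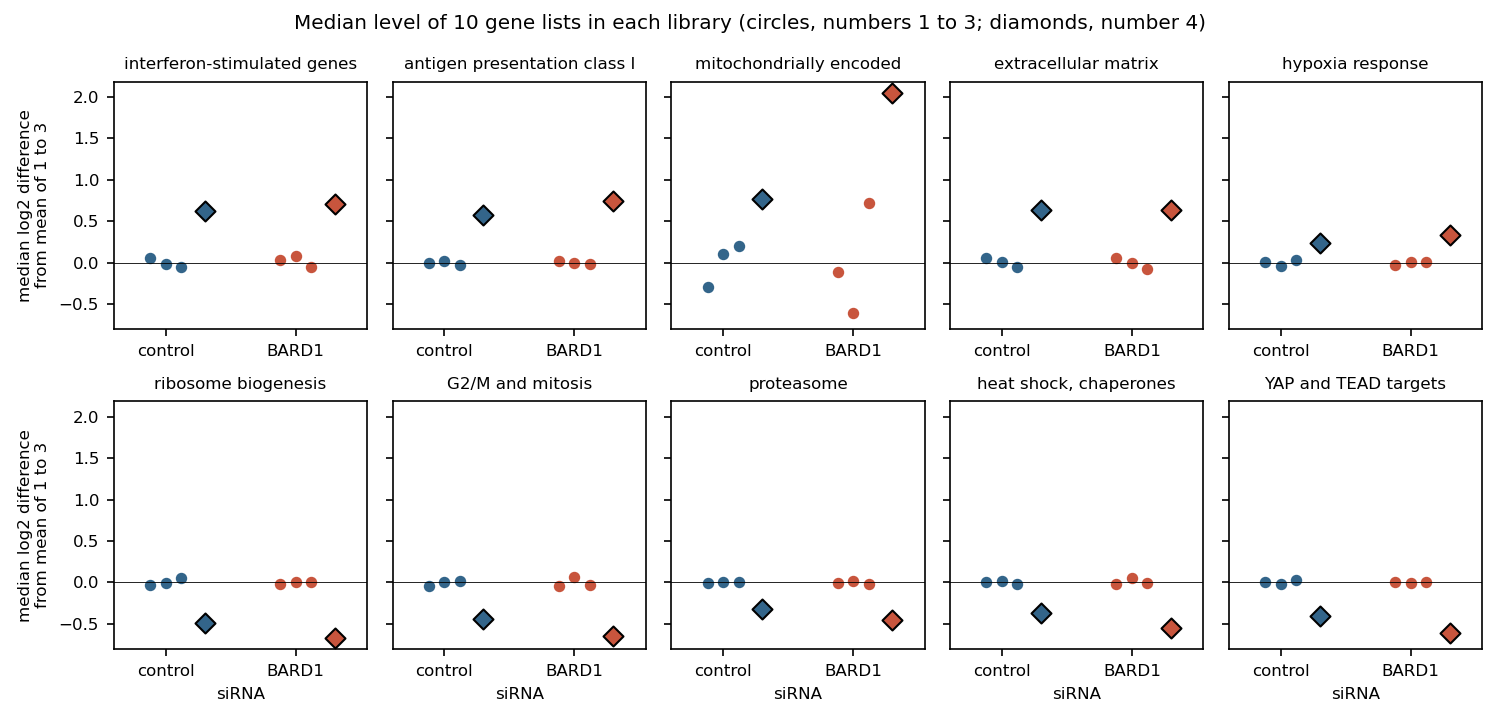
For 10 lists, each point is 1 library: the median over members of the log2(CPM + 0.5) difference from the mean of libraries 1 to 3 of the same siRNA. Number 4 (diamonds) stands above the circles in the upper row and below them in the lower row under both siRNAs, while the mitochondrially encoded list also spreads among libraries 1 to 3, from -0.61 to 0.72.

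Matrix and surface genes gave several of the largest rises. Among 27 tested matrix genes 13 were higher and 3 lower, with a median of 0.73 against a level background of 0.07, and 0.48 after the trend on mean level was removed; 27 of the 35 listed genes passed the filter on low counts. COL5A1, a fibrillar collagen chain at chr9:137533620-137736686 on GRCh37, was at 5.64, 6.68 and 6.66 CPM in control libraries 1 to 3 and at 39.9 CPM in library 4, and at 5.73, 5.98 and 5.08 CPM against 59.5 CPM under BARD1 siRNA. Both libraries numbered 4 were far above the rest, by 2.65 on the log2 scale under control siRNA and 3.41 under BARD1 siRNA (in both, 3.05, SE 0.13, edgeR adjusted p = 8.24e-11). The collagen VI chains did not move together: COL6A1 rose by 1.01 and COL6A2 by 1.45, while COL6A3 fell from 201 to 214 CPM to 125 CPM under control siRNA and from 305 to 328 CPM to 145 CPM under BARD1 siRNA. AGRN, a proteoglycan of basement membranes, rose by 1.09, LAMB2 by 1.10 and LAMA5 by 1.01. Of the fibroblast markers 3 were tested, with 2 called higher and none lower. Summed, the list was at 1125 and 1167 CPM in the libraries numbered 4 against 448 to 737 CPM. Nearly all of it was COL1A2, at 1089 and 1139 CPM against 434 to 716 CPM. COL3A1 was at 33.0 and 27.1 CPM against 12.6 to 20.1 CPM, and COL1A1 at 2.01 and 1.02 CPM against 0.617 to 1.09 CPM. The other listed genes, DCN, LUM, FAP, PDGFRB and POSTN, were at 1.35 CPM or less in every library. In those numbered 4 they were at 0.223 CPM or less. The part of fibroblasts in these values was not tested.

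The 12 largest rises at 10 CPM or more included other secreted and surface proteins. LGALS3BP, a secreted galectin ligand, was at 19.5, 16.2 and 14.4 CPM in control libraries 1 to 3 against 110 CPM in library 4, and at 19.6, 17.5 and 10.7 CPM against 167 CPM under BARD1 siRNA (log2 difference 3.07, SE 0.15). MUC1, a membrane mucin of ductal cells, was at 5.72, 6.31 and 4.90 CPM against 21.1 CPM, and at 4.32, 3.87 and 3.80 CPM against 37.8 CPM. In both genes every library numbered 4 lay above every other library. BAI2, TLE2, KRT15, SERPINF1, THBS3, BCAM, RGL3 and SERPINA3, with COL5A1 and FOS, complete the 12, at log2 differences of 2.03 to 3.21; TLE2 is a Groucho corepressor, KRT15 a type I keratin, BCAM a laminin receptor, and SERPINF1, SERPINA3 and THBS3 are secreted.

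**Figure D5:**
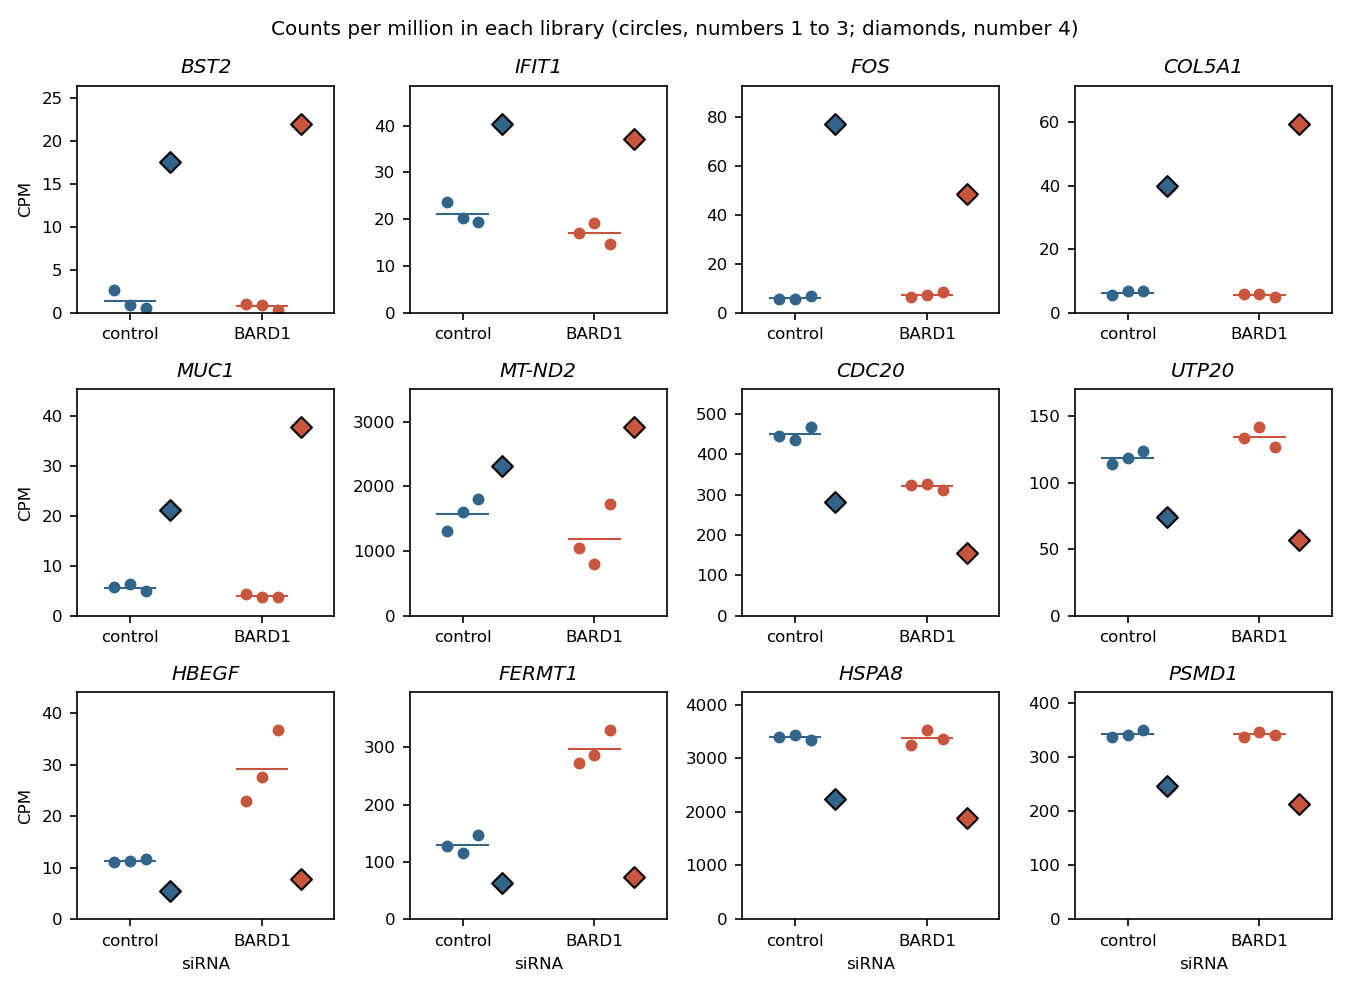
CPM of 12 genes in each library, with control siRNA in blue and BARD1 siRNA in red; circles are libraries 1 to 3, horizontal lines their mean and diamonds library 4. In each panel the diamonds lie outside the circles of their own siRNA, from BST2 at 17.5 and 22 CPM to FERMT1 at 63.0 and 73.1 CPM.

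The 13 mitochondrially encoded proteins, all parts of the respiratory chain or ATP synthase, were all called higher. Their median was 1.43, against -0.23 in the level background; it was 0.75 within control siRNA and 1.96 within BARD1 siRNA. MT-CO1, the catalytic subunit of cytochrome oxidase, was at 3166, 4579 and 4834 CPM in control libraries 1 to 3 and at 7905 CPM in library 4. Under BARD1 siRNA it was at 2093, 1499 and 3873 CPM in libraries 1 to 3 and at 10295 CPM in library 4. Library 4 was the highest under each siRNA, but libraries 1 to 3 also differed among themselves by more than in any other list shown, and MT-ND4L overlapped in control siRNA, with 147 CPM in library 4 against 95.3 to 159 CPM. MT-ND4L and MT-ATP8 overlap their neighbours in the genome, so their counts depend on how shared reads were assigned.

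The nuclear genes of the same complexes did not follow. Among 37 nuclear complex I genes 8 were higher and 5 lower (median 0.04), and among 34 genes of complexes III to V 5 were higher and 5 lower (median 0.03); the level backgrounds were -0.10 and -0.23, and the sign of each median changed with 3 alternatives. ATP5B, the catalytic subunit of ATP synthase, fell by 0.27 and ATP5D, of its central stalk, rose by 0.33. The genes that copy, transcribe and stabilise mitochondrial RNA were lower, with 14 of 21 called lower and 1 higher and a median of -0.32, against a level background of -0.10, and -0.21 after the trend on mean level was removed. LRPPRC, which stabilises mitochondrial messenger RNA with SLIRP, was at 717, 724 and 730 CPM in control libraries 1 to 3 and 555 CPM in library 4, and at 803, 870 and 840 CPM against 595 CPM under BARD1 siRNA. Its groups did not overlap (log2 difference -0.44, SE 0.06), and SLIRP fell by 0.52 on the log2 scale. Mitochondrial ribosome genes were lower in 29 and higher in 2 of 69, with a median of -0.19 against a level background of -0.10, and -0.12 without the trend.

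Ribosome biogenesis, the nucleolar making of ribosomal RNA and its packing with protein, fell almost as a whole. Of 41 members 39 were lower and none higher, with a median of -0.57 against a level background of -0.23, and -0.39 after the trend on mean level was removed. EBNA1BP2, a nucleolar factor of the large subunit at chr1:43629846-43736607 on GRCh37, was at 419, 449 and 467 CPM in control libraries 1 to 3 and at 219 CPM in library 4, and at 467, 470 and 474 CPM against 204 CPM under BARD1 siRNA. Both libraries numbered 4 lay far below the other 6, which differed little (log2 difference -1.11, SE 0.06, edgeR adjusted p = 1.8e-09). DDX21, a nucleolar helicase, fell by 0.98 on the log2 scale, UTP20 of the small-subunit processome by 0.95, treacle (TCOF1) by 0.81, NOLC1 by 0.68, nucleolin (NCL) by 0.57 and fibrillarin (FBL) by 0.50. POLR1A and POLR1B, the largest subunits of RNA polymerase I, fell by 0.57 and 0.55. NOB1 and UBTF, at -0.15 and -0.04, did not pass the test. MYC, which drives many of these genes, fell by 0.44.

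The CACGTG box, to which MYC and its relatives bind, was in 14 of the 36 ribosome biogenesis promoters found (38.9%) against 7.43% of all promoters. Members with and without it had medians of -0.62 and -0.55. Of all tested genes with a promoter 10.2% held the box, and the medians were -0.04 with the box and 0.00 without it. The 150 bases before UTP20 (chr12:101279955-101280104, plus strand) and CIRH1A (chr16:69132499-69132648, plus strand), a member of the same processome, are shown with the box in capitals.
UTP20: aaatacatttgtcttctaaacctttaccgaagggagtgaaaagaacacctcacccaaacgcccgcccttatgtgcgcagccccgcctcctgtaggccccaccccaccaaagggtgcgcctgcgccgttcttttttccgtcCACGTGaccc
CIRH1A: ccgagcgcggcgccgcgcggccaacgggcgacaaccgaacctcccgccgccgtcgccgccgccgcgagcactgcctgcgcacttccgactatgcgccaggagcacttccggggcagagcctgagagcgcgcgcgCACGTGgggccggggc
In both the box lies within 20 bases of the start.

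The protein parts of the ribosome itself did not share this fall. Of 78 cytosolic ribosomal protein genes 12 were higher and 6 lower, with a median of 0.01 that ranged from -0.09 within control siRNA to 0.28 after the trend on mean level was removed. RPL3 was at 1539 to 1573 CPM in control libraries 1 to 3 against 1740 CPM in library 4, and at 1434 to 1535 CPM against 1923 CPM under BARD1 siRNA. Among translation factors 19 of 33 were lower and 2 higher, with a median of -0.19, against a level background of -0.23, that became 0.05 after the trend on mean level was removed. Single factors went both ways: EIF4A2, a helicase of initiation, rose by 0.71 and EIF5, which triggers start-codon choice, fell by 0.77. Cytosolic tRNA synthetases were lower in 18 and higher in 2 of 23, with a median of -0.29 close to the level background of -0.23, and -0.10 without the trend; TARS fell by 0.60 and KARS by 0.54, while WARS, which interferon induces, rose from 364 to 389 CPM to 562 CPM under control siRNA and from 553 to 580 CPM to 898 CPM under BARD1 siRNA.

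Mitotic genes fell as broadly. Of 55 members of the G2/M list 52 were lower and none higher, with a median of -0.56 against a level background of -0.23, and -0.40 after the trend on mean level was removed. CDC20, which switches on the complex that ends metaphase (chr1:43824626-43828874 on GRCh37), was at 445, 434 and 467 CPM in control libraries 1 to 3 and 281 CPM in library 4. Under BARD1 siRNA it was at 323, 327 and 310 CPM in libraries 1 to 3 and 156 CPM in library 4. Library 4 was below the others under each siRNA, and the fall of 0.85 (log2, SE 0.07) was larger by 0.36 under BARD1 siRNA (interaction, edgeR adjusted p = 0.0363). MKI67, the proliferation marker, fell by 1.03, the cytokinesis gene ANLN by 1.01, ECT2 by 0.83, HMMR by 0.81, the polo kinase PLK1 by 0.78 and the spindle pole protein ASPM by 0.79. KIF15, SPC24 and CDC25B had log2 differences of -0.14, -0.12 and 0.08 and did not pass. Among gene families grouped by the stem of their symbol, kinesins (KIF) had 18 of 31 members lower and 4 higher, and nucleoporins (NUP) 17 of 20 lower and 1 higher. Of all protein-coding genes tested 27.8% were lower and 23.1% higher.

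The promoters of mitotic genes often hold a CCAAT box, bound by NF-Y, and the letters TTTGAA of the cell cycle homology region, through which the DREAM and MuvB complexes act. CCAAT was in 35 of the 48 G2/M promoters found (72.9%) against 35.7% of all promoters, and TTTGAA in 33 (68.8%) against 15.4%. Within the list the medians with and without CCAAT were -0.55 and -0.56, and with and without TTTGAA -0.56 and -0.55. Of all tested genes with a promoter 36.4% held CCAAT and 9.41% TTTGAA. Over these tested genes the medians were -0.03 with CCAAT and 0.01 without, and -0.09 with TTTGAA and 0.00 without. The 150 bases before HMMR (chr5:163460482-163460631, plus strand) and CDC20 (chr1:43358831-43358980, plus strand, both GRCh38.p14) are shown with both motifs in capitals, on either strand.
HMMR: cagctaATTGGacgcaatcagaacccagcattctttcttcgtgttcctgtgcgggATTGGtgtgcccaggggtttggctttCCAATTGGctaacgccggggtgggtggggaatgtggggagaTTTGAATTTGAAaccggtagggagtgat
CDC20: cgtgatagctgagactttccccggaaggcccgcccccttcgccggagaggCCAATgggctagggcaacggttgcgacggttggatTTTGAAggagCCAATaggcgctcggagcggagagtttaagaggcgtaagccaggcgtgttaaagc
Both genes carry more than 1 CCAAT box, and HMMR carries TTTGAA in direct repeat.

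Replication genes fell less far. Of 50 members of the DNA replication and E2F list 33 were lower and none higher, with a median of -0.26 against a level background of -0.16, and -0.13 after the trend on mean level was removed. MCM10, a replication factor, fell by 0.71, the primase-polymerase subunit POLA1 by 0.63, MCM7 of the replicative helicase by 0.49 and the maintenance methyltransferase DNMT1 by 0.47. The E2F letters TTTCGCGC or TTTGGCGC were in 13 of 42 promoters found (31.0%) against 1.18% of all promoters and 2.07% of those of tested genes. Within the list the medians were -0.24 with and -0.29 without them. Homologous recombination and Fanconi genes, the setting in which BARD1 works, were lower in 17 and higher in 1 of 40, with a median of -0.18 against a level background of 0.07, and -0.18 without the trend. BRCA2 was at 36.2, 39.7 and 37.7 CPM in control libraries 1 to 3 and at 27.3 CPM in library 4, and at 31.9, 39.5 and 31.6 CPM against 15.8 CPM under BARD1 siRNA; the groups did not overlap under either siRNA. RAD52, the annealing protein, rose by 0.88. Replication-dependent histones, whose RNAs mostly end without a poly-A tail and were seen here through poly-A selection, were lower in 5 and higher in 1 of 40 tested of 51 listed, with a median of -0.38 against a level background of 0.39; many are near copies of each other.

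Proteasome and cytosolic chaperone genes were lower, while those of the unfolded protein response stood near their level background. The proteasome, which degrades tagged proteins, had 30 of 35 members lower and 2 higher, with a median of -0.43 against a level background of -0.23, and -0.19 after the trend on mean level was removed. The lid and base subunits PSMD12, PSMD11 and PSMC1 fell by 0.68, 0.67 and 0.59, and PSME4, an activator, by 0.72. The 2 members called higher were PSME1 and PSME2, both activator subunits that interferon induces, at 0.65 and 0.29. Cytosolic chaperones were lower in 21 and higher in 1 of 32, with a median of -0.42 against a level background of -0.23, and -0.26 without the trend. HSP90AA1, the inducible form of HSP90, was at 6820, 6965 and 6743 CPM in control libraries 1 to 3 and 4002 CPM in library 4, and at 5449, 6067 and 5879 CPM against 2674 CPM under BARD1 siRNA. Those are the widest falls in absolute level among the named chaperones (log2 difference -0.94, SE 0.07), and HSPH1, HSPA8 and the TCP1 chaperonin subunit fell by 0.91, 0.71 and 0.68. Of 29 genes of the unfolded protein response 12 were lower and none higher, with a median of -0.15 against a level background of -0.10, and -0.05 without the trend; HSPA5, the main chaperone of the endoplasmic reticulum, fell by 0.56.

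Genes that read cell shape and contact were lower. Targets of YAP and TEAD had 17 of 24 members lower and 2 higher, with a median of -0.52 against a level background of -0.10, and -0.39 after the trend on mean level was removed. NUAK2, a kinase of actin tension, was at 13.3, 9.60 and 12.9 CPM in control libraries 1 to 3 and 4.92 CPM in library 4, and at 18.6, 17.7 and 20.6 CPM against 3.32 CPM under BARD1 siRNA. Both libraries numbered 4 were below the other 6 (log2 difference -1.84, SE 0.23). DLC1, a GTPase-activating protein, fell by 1.26, CYR61 by 1.10, the ectonucleotidase NT5E by 0.94, the receptor kinase AXL by 0.76 and TEAD1 itself by 0.69; CTGF, at -0.67, did not pass the test. Actin genes under serum response factor were lower in 18 and higher in 2 of 28, with a median of -0.34 against a level background of -0.23, and -0.23 without the trend; the filamin FLNA fell by 0.61 and the tropomyosins TPM3 and TPM4 by 0.63 and 0.66. The TEAD letters CATTCC were in 4 of 14 promoters found (28.6%) against 14.0% of all promoters and 10.6% of those of tested genes.

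Keratins and junction genes gave no common direction. KRT8 was at 2275, 2296 and 2272 CPM in control libraries 1 to 3 and 1540 CPM in library 4, and at 3335, 3343 and 3237 CPM against 1801 CPM under BARD1 siRNA, and its partner KRT18 fell by 0.67. The same epithelial list held 5 members called higher of 15 tested, among them plakoglobin (JUP) at 1.43 and CLDN4 at 0.67. Integrins and adhesion receptors were higher in 8 and lower in 6 of 21: ITGB4 of hemidesmosomes rose by 1.17 and L1CAM by 1.22, while ITGA6, the partner of ITGB4, fell by 0.56. Among mesenchymal genes ZEB1 fell by 0.56, and the ID1 and ID3 genes, direct targets of BMP signalling, rose by 0.66 and 1.04.

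Immediate early genes split in both directions. Of 29 members 10 were higher and 12 lower, with a median of -0.31 that was -0.01 within control siRNA and -0.40 within BARD1 siRNA, against a level background of 0.07. FOS (chr14:75745477-75748933 on GRCh37) was at 5.60, 5.60 and 6.92 CPM in control libraries 1 to 3 and 77.1 CPM in library 4, and at 6.37, 7.31 and 8.43 CPM against 48.3 CPM under BARD1 siRNA. It was the largest rise of a gene at 10 CPM or more (log2 difference 3.21, SE 0.15, edgeR adjusted p = 1.99e-10). FOSB, NR4A1, JUNB, JUND and EGR1 rose by 2.25, 1.88, 1.26, 0.99 and 0.97. The FOS relatives FOSL1 and FOSL2 fell by 1.13 and 0.59, ATF3 by 1.15, CYR61 by 1.10 and KLF4 by 0.63, while JUN, at -0.06, and IER3, at -0.09, did not pass. Output and feedback genes of the ERK kinases were lower in 12 and higher in 3 of 25: DUSP7, a phosphatase of ERK, fell by 0.94 and the receptor EPHA2 by 0.64, and SPRY1, a feedback inhibitor, rose by 0.62.

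The growth factor gene HBEGF was among the 12 largest falls, but the EGFR family, MET and their ligands were mixed. Of 12 tested members 6 were lower and 4 higher, with a median of -0.29 against a level background of 0.07. The median was -0.09 after the trend on mean level was removed, and -0.01 with the filter at a mean of 5 CPM. HBEGF, a ligand of EGFR, was at 11, 11.2 and 11.7 CPM in control libraries 1 to 3 and 5.52 CPM in library 4, and at 23.0, 27.6 and 36.7 CPM against 7.76 CPM under BARD1 siRNA. Both libraries numbered 4 lay below the other 6, also across siRNAs (log2 difference -1.48, SE 0.20). EREG, another ligand, fell by 0.67, whereas the ligand BTC rose by 1.44 and the receptor ERBB2 by 0.56. TMEM158, NUAK2, PEAR1, FERMT1, DUSP5, LPXN, ADAMTS4, DDAH1, FAS and GADD45A were also among the 12 largest falls, at -1.87 to -1.32. TMEM158, a membrane protein, was at 15.8, 15.6 and 16.6 CPM in control libraries 1 to 3 against 4.92 CPM in library 4, and at 7.13, 9.23 and 9.92 CPM against 2.03 CPM under BARD1 siRNA. FERMT1 is an integrin activator, DUSP5 a nuclear ERK phosphatase and FAS a death receptor.

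Targets of p53, a protein that is mutant in MiaPaCa-2, were lower in 12 and higher in 7 of 26, with a median of -0.14 against a level background of 0.07, and -0.09 without the trend. FAS, GADD45A and the kinase inhibitor CDKN1A fell by 1.32, 1.32 and 1.02, and TP53INP1, TP53I3 and BTG2 rose by 1.56, 0.98 and 0.74. NF-kB targets were lower in 14 and higher in 1 of 26, with a median of -0.43 against a level background of -0.02, and -0.41 without the trend. BIRC3, an inhibitor of apoptosis, was at 36.2, 40.9 and 40.2 CPM in control libraries 1 to 3 and 19.3 CPM in library 4, and at 40.1, 53.7 and 59.4 CPM against 18.8 CPM under BARD1 siRNA; its neighbour and relative BIRC2 fell by 0.96 and RELB, an NF-kB subunit, by 1.10. BMF, a BH3-only protein of cell death, rose by 2.74 from 0.311 to 1.57 CPM to 5.01 and 6.68 CPM.

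Nutrient genes pointed in different directions by branch. SLC7A5, an amino acid transporter, was at 480, 459 and 472 CPM in control libraries 1 to 3 and 258 CPM in library 4, and at 492, 487 and 490 CPM against 287 CPM under BARD1 siRNA, and its heavy chain SLC3A2 fell by 0.65 and the arginine carrier SLC7A1 by 0.78. Of 33 genes of the amino acid and ATF4 response 15 were lower and 2 higher, with a median of -0.17 against a level background of -0.10, and -0.12 without the trend. The ATF4 letters TTGCATCA were in 1 of 27 promoters found (3.7%) against 0.923% of all promoters and 0.445% of those of tested genes. Genes raised when growth factors are withdrawn and FOXO factors act were higher in 10 and lower in 1 of 24, with a median of 0.27 against a level background of 0.07. CCNG2, a cyclin of arrested cells, was at 8.97, 6.64 and 6.10 CPM against 22.3 CPM under control siRNA, and at 7.24, 6.31 and 8.19 CPM against 21.6 CPM under BARD1 siRNA. It rose by 1.60 on the log2 scale, YPEL3 by 1.33, FOXO6 by 1.01 and KLF9 by 0.85.

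Hypoxia genes were higher in 16 and lower in 5 of 33, with a median of 0.27 against a level background of -0.10, and 0.28 without the trend. PPFIA4 was at 10.5, 12.3 and 10.4 CPM in control libraries 1 to 3 and 34.1 CPM in library 4, and at 9.09, 8.42 and 8.05 CPM against 39.2 CPM under BARD1 siRNA. ANGPTL4, a secreted lipase inhibitor, rose by 1.01, PFKFB4 by 0.95, NDRG1 by 0.68 and VEGFA by 0.63, while HIF1A, the oxygen-regulated factor itself, fell by 0.34 and SLC2A1, the main glucose carrier, by 0.19. Glycolysis as a whole had 6 members higher and 7 lower of 23; ALDOC and ENO2, isoforms that hypoxia raises, rose by 2.10 and 0.79 and HK2 fell by 0.58. The hypoxia letters ACGTG were in 16 of 27 promoters found (59.3%) against 21.6% of all promoters and 26.8% of those of tested genes. Within the hypoxia list the medians with and without them were 0.30 and 0.25.

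Lipid genes were more often higher than lower. Fatty acid oxidation had 12 of 22 members higher and 2 lower (median 0.27), fatty acid synthesis 10 of 24 higher and 6 lower (median 0.21), and cholesterol synthesis 10 of 25 higher and 2 lower (median 0.18). Their level backgrounds were -0.02, -0.10 and -0.10, and their medians without the trend 0.35, 0.24 and 0.20. TM7SF2, a sterol reductase, was at 9.84, 8.48 and 6.98 CPM in control libraries 1 to 3 and 24.6 CPM in library 4, and at 10.7, 8.88 and 9.26 CPM against 35.4 CPM under BARD1 siRNA. The desaturase FADS2 rose by 1.07, ACSS2, which makes acetyl-CoA, by 0.78 and MLXIPL, a glucose-sensing factor, by 1.84. Among NRF2 targets 8 were higher and 11 lower of 27: the cystine carrier SLC7A11 fell by 0.94, TXNRD1 by 0.68 and HMOX1 by 0.61, while NQO1 rose by 0.51 and ABCC3 by 1.27.

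Regulators of chromatin and of small RNAs were lower. Chromatin regulators had 29 of 40 members lower and 1 higher, with a median of -0.33, against a level background of -0.23, that was -0.15 after the trend on mean level was removed; the remodelers CHD7 and CHD1 fell by 1.23 and 0.75. Of 16 small RNA silencing genes 9 were lower and 2 higher, with a median of -0.26 against a level background of -0.10, and -0.12 without the trend. DICER1, which cuts microRNA precursors, was at 187, 200 and 198 CPM in control libraries 1 to 3 and 110 CPM in library 4, and at 231, 233 and 227 CPM against 101 CPM under BARD1 siRNA. AGO2, which carries the guide strand of an siRNA and cuts its target, fell by 0.99 and TNRC6A by 0.76, and MOV10, a helicase, rose by 1.0. Splicing factors were lower in 25 and higher in 5 of 46, with a median of -0.20, against a level background of -0.23, that became 0.01 after the trend on mean level was removed. NEAT1, the RNA of paraspeckles, was at 160, 186 and 213 CPM against 339 CPM under control siRNA and at 219, 185 and 309 CPM against 534 CPM under BARD1 siRNA, whereas MALAT1, its neighbour in the genome, did not pass the test at -0.17.

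Other lists held a mixture. Genes of Wnt signalling were higher in 10 and lower in 4 of 25 (median 0.28, or 0.05 after the trend on mean level was removed), and Notch genes higher in 10 and lower in 2 of 22 (median 0.24), with NOTCH3 and HES1 up by 0.89 and 0.94 and NOTCH2 down by 0.68. Autophagy and lysosome genes were higher in 9 and lower in 6 of 37, with the cathepsins CTSZ and CTSB up by 0.78 and 0.65. Clock genes were split at 6 higher and 6 lower of 17; DBP, an output factor of the clock, rose from 16.5 to 22.8 CPM to 44.8 CPM under control siRNA and from 11.2 to 17.2 CPM to 57.6 CPM under BARD1 siRNA. KRAB zinc fingers of chromosome 19 were higher in 10 and lower in 4 of 73 (median 0.12 against a level background of 0.27), and apoptosis genes, snoRNA host genes and metal handling genes were higher in 5, 4 and 1 and lower in 9, 2 and 5 of 29, 18 and 13.

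A dependence of the number 4 difference on the siRNA was called in few genes. With 1 library numbered 4 under each siRNA, the genes not called cannot be taken to differ alike under both. The interaction passed the test in 364 of 14528 genes (2.51%), with 106 that rose more or fell less under BARD1 siRNA and 258 that fell more or rose less; with upper-quartile scaling the split was 142 and 159. The 258 had median differences of -0.30 under control siRNA and -0.81 under BARD1 siRNA, and the 106 had medians of 0.20 and 1.05. FERMT1 shows the first kind: it was at 127, 116 and 147 CPM in control libraries 1 to 3 and 63.0 CPM in library 4, and at 273, 286 and 330 CPM against 73.1 CPM under BARD1 siRNA, a fall larger by 0.97 (interaction SE 0.15, edgeR adjusted p = 0.00222). TXNRD1 behaved likewise, at 812, 757 and 771 CPM against 603 CPM and at 1419, 1377 and 1629 CPM against 724 CPM. In both genes libraries 1 to 3 were higher under BARD1 siRNA than under control siRNA, while the 2 libraries numbered 4 lay closer together. BARD1 itself had an interaction of 1.84 (edgeR adjusted p = 0.00172), and the depth of its knockdown in number 4 moves with these values; its part in them was not tested. The count of interaction genes was 197, 102 and 194 without control siRNA library 1, 2 or 3.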

How the data were processed

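Messenger RNA of 8 MiaPaCa-2 libraries was analysed, 4 per siRNA. Per the submitters' processing notes the reads passed fastp, HISAT2 2.0.5 and featureCounts on GRCh37 (hg19); no source used here gives the parameters. The deposited table holds raw read counts per gene, which were used, and, among other columns, gene length in bases, an annotation by the authors used to group genes by length. Another 16 per-sample columns were not used. Of 48162 rows, 22217 name no gene and hold 0 reads, and 25945 genes remained. Gene names came from the table, with 26 names restored from date format.

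Counts were fitted with edgeR 4.0.16 (R 4.3.3, limma 3.58.1): filterByExpr, TMM scaling, terms for siRNA and number 4, quasi-likelihood F-test, Benjamini-Hochberg adjustment over 14528 genes, threshold 0.05. CPM are scaled by TMM, and SE are those of log2 differences. An interaction term tested whether number 4 differed between siRNAs. Alternatives used DESeq2 1.42.0, other scalings, filters, a replicate block and each library left out. The fits were tested on simulated data. The least different pair of libraries within an siRNA had a chi-square per degree of freedom of 6.06, so none was counted as a repeat. Floors cover counting error only.

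Genes named by rule were the 12 largest rises and falls of protein-coding genes at 10 CPM or more that lay outside libraries 1 to 3 under both siRNAs, and in each list up to 4 members of smallest p with 1 of the other direction. Results on some of these genes are not reported here. Further list members were named after their values were seen. The libraries, lists and motifs were chosen with earlier results of these data known, in which number 4 already stood apart. Promoters came from RefSeq (GRCh38.p14), matched by symbol for 10550 of the 14528 genes.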

Additional observations from a re-analysis of the deposited data

Results flagged for a closer look

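In groups of 4 libraries, 1 library measure and 1 named gene stood apart by the gap of the extreme library to its nearest neighbour: genes with at least 1 CPM in control siRNA library 4, at 12961, and CALR in control siRNA library 2, at 736 CPM against 695 to 697 CPM. Another 227 of 544 gene values had library 4 as the outlying one, which is the comparison itself; chance flags about 1 in 20 groups.

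In 29 of the named genes the difference of number 4 depended on the siRNA (interaction, edgeR). Values here are the log2 difference under BARD1 siRNA minus that under control siRNA. It was positive in MT-ND4L (2.33), BARD1 (1.84), MUC1 (1.33), MLXIPL (1.05), SERPINF1 (0.89), SERPINA3 (0.78), TLE2 (0.76), ITGB4 (0.62), ID3 (0.56), KRT15 (0.49) and TAPBP (0.46), all of which but BARD1 were called higher in number 4. It was negative in FOS (-0.95), whose rise was smaller under BARD1 siRNA. It was also negative in genes that were lower in number 4, which fell further under BARD1 siRNA: NUAK2 (-1.23), FERMT1 (-0.97), TXNRD1 (-0.66), DDAH1 (-0.65), CHD7 (-0.62), BIRC2 (-0.59), AGO2 (-0.53), EREG (-0.52), NOTCH2 (-0.50), TFRC (-0.49), IL6ST (-0.47), DUSP7 (-0.46), COL6A3 (-0.41), SLC30A1 (-0.39), CDC20 (-0.36), HSP90AA1 (-0.34) and KRT8 (-0.31).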

How the results depend on the processing

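The genes called changed more than their count. Of the 6712 genes, 4852 were also called with the same sign after the trend on mean level was removed, where 5919 were called. That overlap was 5597 genes with total-count scaling and 5880 with upper-quartile scaling. The count of 6712 genes stayed within 1.5 times under the other scalings, filters, DESeq2, the protein-coding genes alone, the removal of mitochondrial genes and the removal of trends on gene length or mean level. It was 4416 without a term for siRNA (2200 lower) and 4094 within control siRNA alone (1817 higher, 2277 lower). Leaving out 1 library gave 4081 to 6546 genes, 1786 to 3134 higher and 2295 to 3522 lower, with the lowest of each without BARD1 siRNA library 4. With the replicate block, number 4 against the mean of numbers 1 to 3, 6560 genes were called (3196 higher, 3364 lower). Among numbers 1 to 3 equal numbers deviated together with correlations across genes of 0.028, 0.029 and 0.079, so the labels' numbers were not taken as pairs. Interaction genes falling more under BARD1 siRNA were 159 with upper-quartile scaling, and with no filter the counts were 682 in all, 220 and 462. Leaving out 1 library of numbers 1 to 3 gave 102 to 461 interaction genes, 28 to 154 and 74 to 307 by direction; leaving out a library numbered 4 leaves no interaction to fit. Among the named genes reported here, the sign turned in ATP5B (0.01) and CALR (0.19) when the trend on mean level was removed, and in FTL (0.00) when that on gene length was removed. The causes were not tested. With 2 libraries numbered 4, their own spread rests on 1 comparison.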

Other observations

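Families grouped by the stem of their symbol gave a description that did not start from a list of pathways. Among stems with at least 20 tested protein-coding members the lowest medians were those of nucleoporins (NUP, -0.45), kinesins (KIF, -0.40), histones (HIST, -0.36), RNA polymerase subunits (POLR, -0.32) and Mediator subunits (MED, -0.26), of which 17 of 20, 18 of 31, 6 of 43, 17 of 29 and 13 of 30 were lower in number 4. In the same order 1, 4, 2, 2 and 3 members were higher. Of all protein-coding genes tested 27.8% were lower and 23.1% higher, and the share of histones called lower was below that of all. NUP98 and NUP155 fell by 0.66 and 0.55 on the log2 scale, KIF5B, a kinesin of cargo transport with no part in the spindle, by 0.75, POLR3G of RNA polymerase III by 0.72 and MED1 by 0.59. The highest medians were those of the stems IL (0.28), TTC (0.26), AC (0.24), ABHD (0.23) and NUDT (0.23), with 8 of 29, 13 of 31, 3 of 31, 5 of 20 and 7 of 21 higher. In that order 4, 3, 2, 3 and 4 members were lower. The share of AC members called higher was below the 23.1% of all protein-coding genes, and those of IL and ABHD were near it. IL13RA1, a receptor chain for interleukins, rose by 0.54 and IL6ST, the shared receptor of the IL6 family, fell by 0.72. The medians of all genes in their members' groups of mean level were -0.23 for NUP, -0.10 for KIF, POLR and MED, and 0.39 for HIST. For the highest stems they were 0.27 for IL, 0.39 for AC and 0.07 for TTC, ABHD and NUDT, so IL and AC did not stand clearly above theirs.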
